A study of Homo sapiens with 6 samples.

Results

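The replication-dependent core histone genes make the bulk of the H2A, H2B, H3 and H4 proteins that a cell needs when it copies its DNA. They were taken here as the protein-coding genes whose current symbol starts with H2AC, H2BC, H3C or H4C followed by digits, which leaves out the linker histone H1. RefSeq lists 64 such genes, and 60 of the 60420 gene identifiers of the deposited table matched one: 17 H2A, 17 H2B, 13 H3 and 13 H4 genes. H2BC7, H2BC8, H4C2 and H4C6 are not analysed here. A mean of at least 5 TPM (a transcript level scaled to gene length and to the library total) over all libraries was reached by 45 of the 60: 15 H2A, 11 H2B, 9 H3 and 10 H4 genes. The other 15 were at or below 1.55 TPM in every library: H2AC1, H2AC18, H2BC1, H2BC3, H2BC6, H2BC9, H2BC10, H2BC14, H3C3, H3C4, H3C8, H3C11, H4C7, H4C9 and H4C13.

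The measurements come from ribosome profiling of HEK293T, a line derived from human embryonic kidney that expresses SV40 large T antigen. Cells received the solvent DMSO, a PRMT1 inhibitor or an inhibitor of PRMT4 (better known as CARM1), both targets being arginine methyltransferases. Compounds, doses and times are not given in the labels. Per treatment 1 input library, which stands for the RNA level, and 1 footprint library, made from the fragments that ribosomes protect, were made. No group had a second library, so no difference below has a replicate check or a p-value, and each describes these 6 libraries only. By their labels the inputs too are ribosome-protected RNA, and the sources used here do not give their preparation. TPM keeps no read number, and the depth of the libraries is therefore unknown.

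DNA in a nucleosome wraps around a core built from H2A, H2B, H3 and H4, and new core proteins are made mainly in S phase. The messages are unusual: most end in a conserved stem-loop instead of a poly(A) tail, and the stem-loop binding protein SLBP acts on that structure in processing, translation and decay. The genes are short and mostly without introns, and they lie in clusters of many nearly identical copies. Their proteins are also substrates of the inhibited enzymes: PRMT1 is known to methylate histone H4, and CARM1 histone H3.

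The stem-loop is shown because it is what sets these messages apart from other messages. The letters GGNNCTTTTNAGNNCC were searched on the sense strand of GENCODE 29 transcripts, 23 to 68 bases after the stop codon where found. They were present in 27 of the 30 members whose annotated transcript runs at least 30 bases past the stop codon; 29 members are annotated with no base after it, so nothing was read from those. Among all 19684 protein-coding genes, 52 held the letters anywhere in a transcript, or 0.264%, and 27 of these 52 were core histone members. Of the 5 forms, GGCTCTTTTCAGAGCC occurred in 16 members (6 H2A, 7 H2B and 3 H3), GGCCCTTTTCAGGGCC in 4 and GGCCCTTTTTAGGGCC in 3, all of them H4, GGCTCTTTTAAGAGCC in 3 (2 H2B and 1 H3), and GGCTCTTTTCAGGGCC in H2AC11 alone. Below, capitals mark the stem-loop with 5 bases on either side, as DNA letters 5′ to 3′, for the most abundant gene with each form.
H2AC19: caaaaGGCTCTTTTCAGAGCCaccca
H2BC5: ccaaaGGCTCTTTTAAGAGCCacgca
H2AC11: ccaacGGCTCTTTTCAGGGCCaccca
H4C11: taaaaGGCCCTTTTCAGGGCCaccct
H4C14: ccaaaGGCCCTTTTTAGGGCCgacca

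How far a read can be given to 1 copy depends on the coding sequence. Of the 45 members past the filter, 20 had at least 75% of their coding windows of 30 bases, about the length of a footprint, in no other gene; these windows are called own windows below. In 8 members no window was their own, and in 4 every window was. H4 genes show the span: their coding sequences of 312 bases were between 79.2% and 100% identical. The first 60 coding bases of the 3 most abundant H4 genes and of H4C12 follow, with capitals where a base differs from H4C11. In this stretch H4C14 differs at 12 bases and H4C3 at 11 (47 and 61 over the whole coding sequence), while H4C12 does not differ from H4C11 anywhere in its coding sequence.
H4C11: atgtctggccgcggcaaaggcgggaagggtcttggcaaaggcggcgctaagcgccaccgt
H4C12: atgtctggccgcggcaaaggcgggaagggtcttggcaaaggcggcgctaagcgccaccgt
H4C14: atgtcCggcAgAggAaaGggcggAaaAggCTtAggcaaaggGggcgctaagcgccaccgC
H4C3: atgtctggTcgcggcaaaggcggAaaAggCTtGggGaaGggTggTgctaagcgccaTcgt

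The H2A pair H2AC13 and H2AC14 is shown for the same reason, since the values of these genes part company further on. Their first 60 coding bases differ at the 1 base in capitals, and 10 bases differ over the 387 coding bases of H2AC14, set against the first 387 of the 393 of H2AC13.
H2AC13: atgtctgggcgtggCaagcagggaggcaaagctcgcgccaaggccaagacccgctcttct
H2AC14: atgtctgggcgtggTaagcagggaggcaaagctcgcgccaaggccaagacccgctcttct

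The letters of the promoters differed between the families. In RefSeq sequence of GRCh38.p14 from 250 bases before to 50 after the start, present for 54 of the 60 members, 4 letter strings were searched on both strands. None of the 4 contains another, although neighbouring matches can overlap. The windows of 9 H2A and H2B pairs on opposite strands overlap, so 1 match can count in both families. CCAAT was found in 16 of 16 H2A, 16 of 16 H2B and 11 of 11 H3 promoters but in 2 of 11 H4 promoters, against 35.7% of all 27305 promoters in the table. ATTTGCAT, the octamer string read by OCT1 (POU2F1), was found in 11 of 16 H2A and 12 of 16 H2B promoters, in 1 of 11 H3 and in 0 of 11 H4 promoters, against 1.80% of all. GGTCCG, taken from the H4 element read by HINFP, was found in 10 of 11 H4 promoters, in 1 of 16 H2A, 1 of 16 H2B and 1 of 11 H3 promoters, and in 11.2% of all. TATAAA was found in 12 of 16 H2A, 11 of 16 H2B, 8 of 11 H3 and 6 of 11 H4 promoters, against 11.95% of all. A match describes the letters and does not show that a factor binds there. The stretches below hold every match of the 4 strings in capitals, on either strand, and the H2AC20 stretch is the H2A promoter with GGTCCG, which overlaps a CCAAT match on the other strand there: H2AC20 at chr1:149886697-149886904 on the plus strand, H3C2 at chr6:26032116-26032205 on the minus strand, and H4C11 at chr6:27824035-27824076 on the plus strand.
H2AC20: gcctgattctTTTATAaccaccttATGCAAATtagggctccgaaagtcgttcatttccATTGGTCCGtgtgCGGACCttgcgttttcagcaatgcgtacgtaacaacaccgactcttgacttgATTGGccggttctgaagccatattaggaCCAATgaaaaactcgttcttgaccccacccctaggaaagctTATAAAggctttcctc
H3C2: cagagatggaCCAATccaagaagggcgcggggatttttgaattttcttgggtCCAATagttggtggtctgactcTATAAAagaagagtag
H4C11: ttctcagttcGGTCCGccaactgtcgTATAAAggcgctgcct

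The inhibitor libraries showed 1 feature that touches every comparison of the inhibitors. Over the 9040 genes at a mean of at least 5 TPM, the difference between the inhibitor labels in input ran opposite to the difference in footprints (Pearson r = -0.31, Spearman rho = -0.40, across genes of the same 4 libraries). Over the 45 core histone genes r was -0.42 and rho -0.41, and over the 20 with at least 75% own windows r was -0.62 and rho -0.64. The 45 include H4C12, at 0 TPM in every footprint library, and H2AC14, at or under 0.21 TPM in every input, and the 20 do not. The genes share libraries and are not independent. The cause of this opposition was not tested. Libraries are therefore named by their labels throughout. The median change of footprint over input against DMSO is also given with the input of the other inhibitor label. As for identity, 10 of 10 marker genes of the cell line reached 1 TPM in a library and their sum ran from 163 to 289.6 TPM, whereas sums of fibroblast, hepatocyte and endothelial markers stayed at or under 3.82 TPM. Most of the cell line sum came from VIM, at 104 to 208 TPM. NEFM, PAX2 and CDH2 stayed at or under 1.97 TPM in every library. The messages of the inhibited enzymes were present in all libraries, PRMT1 at 86.1 to 276 TPM and CARM1 at 22.8 to 99.9 TPM.

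Core histone genes made up a large share of the protein-coding signal. Summed over the 60 members their inputs held 6.13% (DMSO), 5.13% (PRMT1 inhibitor label) and 5.64% (PRMT4 inhibitor label) of protein-coding TPM. The footprint shares were 5.36%, 4.57% and 4.88% in the same order. In either fraction DMSO was highest and the PRMT1 inhibitor label lowest. The families were not equal: of all core histone TPM in the DMSO input, H2A held 34.6%, H3 27.0%, H2B 21.5% and H4 16.9%, and in the DMSO footprints 35.1%, 28.8%, 19.9% and 16.1%. Over the 6 libraries this order of families did not change. H2A ranged from 31.5% to 35.1% and H2B from 19.9% to 24.2%, the latter at its highest in the footprints labelled PRMT1 inhibitor.

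**Figure D1:**
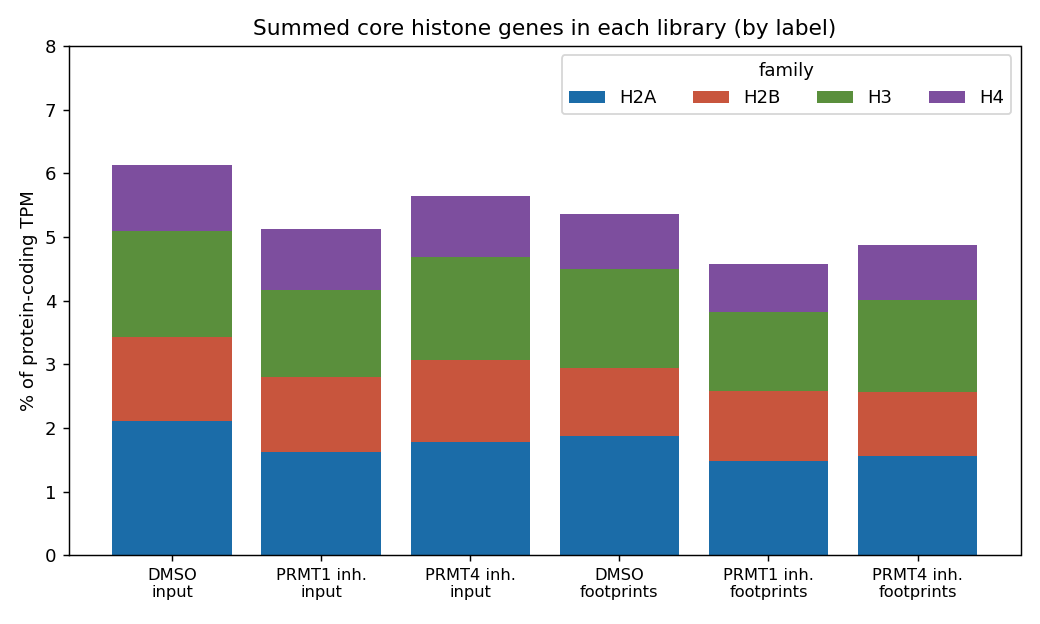
Summed TPM of the core histone genes as a percentage of protein-coding TPM (vertical axis) in the 6 libraries named by label, with 1 library per bar and the families stacked in colour. The bars stand between 4.57% and 6.13%, with DMSO highest among inputs and among footprints.

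A few copies carried a large share of this signal. The top 3 members held 33.9% of core histone TPM in the DMSO input and 26.4% in the DMSO footprints, and H2AC19 alone held 17.0% and 11.2%. H2AC19 was the highest member in all 6 libraries, at 4752, 3049.7 and 2773 TPM in the inputs (DMSO, PRMT1 inhibitor label, PRMT4 inhibitor label, the order used throughout) and 4478, 2940.04 and 3577 TPM in the footprints. Its coding sequence is identical to that of H2AC18, listed at 0.12 TPM or less in every library, so the H2AC19 value stands for that pair.

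Among the other abundant H2A genes, H2AC20 stood at 1097, 624 and 801 TPM as input and 4099.95, 2742 and 2682 TPM as footprints. It was among the 9 highest members in every input and among the 3 highest in every footprint library. H2AC12 stood at 826, 551 and 508 TPM (inputs) and 1576, 877 and 1447 TPM (footprints).

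Of the H2B genes, H2BC5 was the most abundant by its mean, through its footprints: 692, 536 and 509 TPM in input against 2475, 2624 and 2198 TPM in footprints. H2BC18 went the other way, at 1319, 793 and 788 TPM as input and 877, 726 and 763 TPM as footprints, and so did H2BC12, at 1209, 1007.5 and 982 TPM (inputs) and 717, 580.1 and 594 TPM (footprints). For H2BC18, 67.8% of coding windows also occur in the pseudogene formerly named HIST2H2BB, which was listed at 54.6, 199 and 335 TPM as input and 829, 277 and 563 TPM as footprints. Summed, H2BC18 and that pseudogene came to 1374, 992 and 1123 TPM (inputs) and 1706, 1002 and 1326 TPM (footprints). The pseudogene values differ between libraries far more than those of H2BC18, and how reads were divided between the 2 loci was not tested. H2BC12L stood at 205, 160.01 and 194 TPM as input and 1340.3, 859.7 and 1188 TPM as footprints, and a further locus with the same coding windows had identical values in every library. H2BC12 and H2BC12L differ at 4 of 381 coding bases, and the sum of H2BC12 and both H2BC12L loci was higher in footprints, at 3397, 2299 and 2970 TPM against 1618, 1328 and 1370 TPM in input, the reverse of H2BC12 alone.

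The H3 family was led by H3C2, at 2292, 1607 and 1715 TPM (inputs) and 3176, 2485 and 2814 TPM (footprints), and by H3C13, at 2439.85, 1605 and 1739 TPM as input and 2876, 1268 and 2313 TPM as footprints. For H3C13 the footprint library labelled PRMT1 inhibitor was the lowest of the 6. H3C12 stood at 521, 382 and 310.4 TPM (inputs) and 1611, 1109.7 and 1507 TPM (footprints). H3C14 and H3C15 have identical coding sequences and identical values in every library, 520.2 TPM each in the DMSO input and 769.96 TPM in the DMSO footprints, so their values are 1 measurement divided evenly. Both are nevertheless counted in every count and median of members. H3C4 was listed at 0 in all 6 libraries; all of its coding windows also occur in the transcripts of AL031777.3, a gene listed at 9.99 to 57.3 TPM.

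H4C14 was the most abundant H4 gene in footprints, at 1719, 1235 and 1180.4 TPM as input and 2912, 2029 and 2603 TPM as footprints. H4C3, whose coding windows are all its own, stood at 1502, 1237 and 825 TPM in input. That was about equal to H4C14 under the PRMT1 inhibitor label and lower in the other inputs. In footprints H4C3 stood at 829, 674 and 917 TPM, below its input except under the PRMT4 inhibitor label. Its lowest input was that labelled PRMT4 inhibitor and its lowest footprint library that labelled PRMT1 inhibitor. H4C11 ran the other way, at 384, 359 and 368 TPM (inputs) and 977, 813 and 993 TPM (footprints), with all 3 inputs close together. By their mean over the 6 libraries, the members below the 3 most abundant of each family ranged from 109.5 to 534 TPM in H2A, 90.5 to 735 TPM in H2B, 12.3 to 784 TPM in H3 and 6.61 to 436 TPM in H4.

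**Figure D2:**
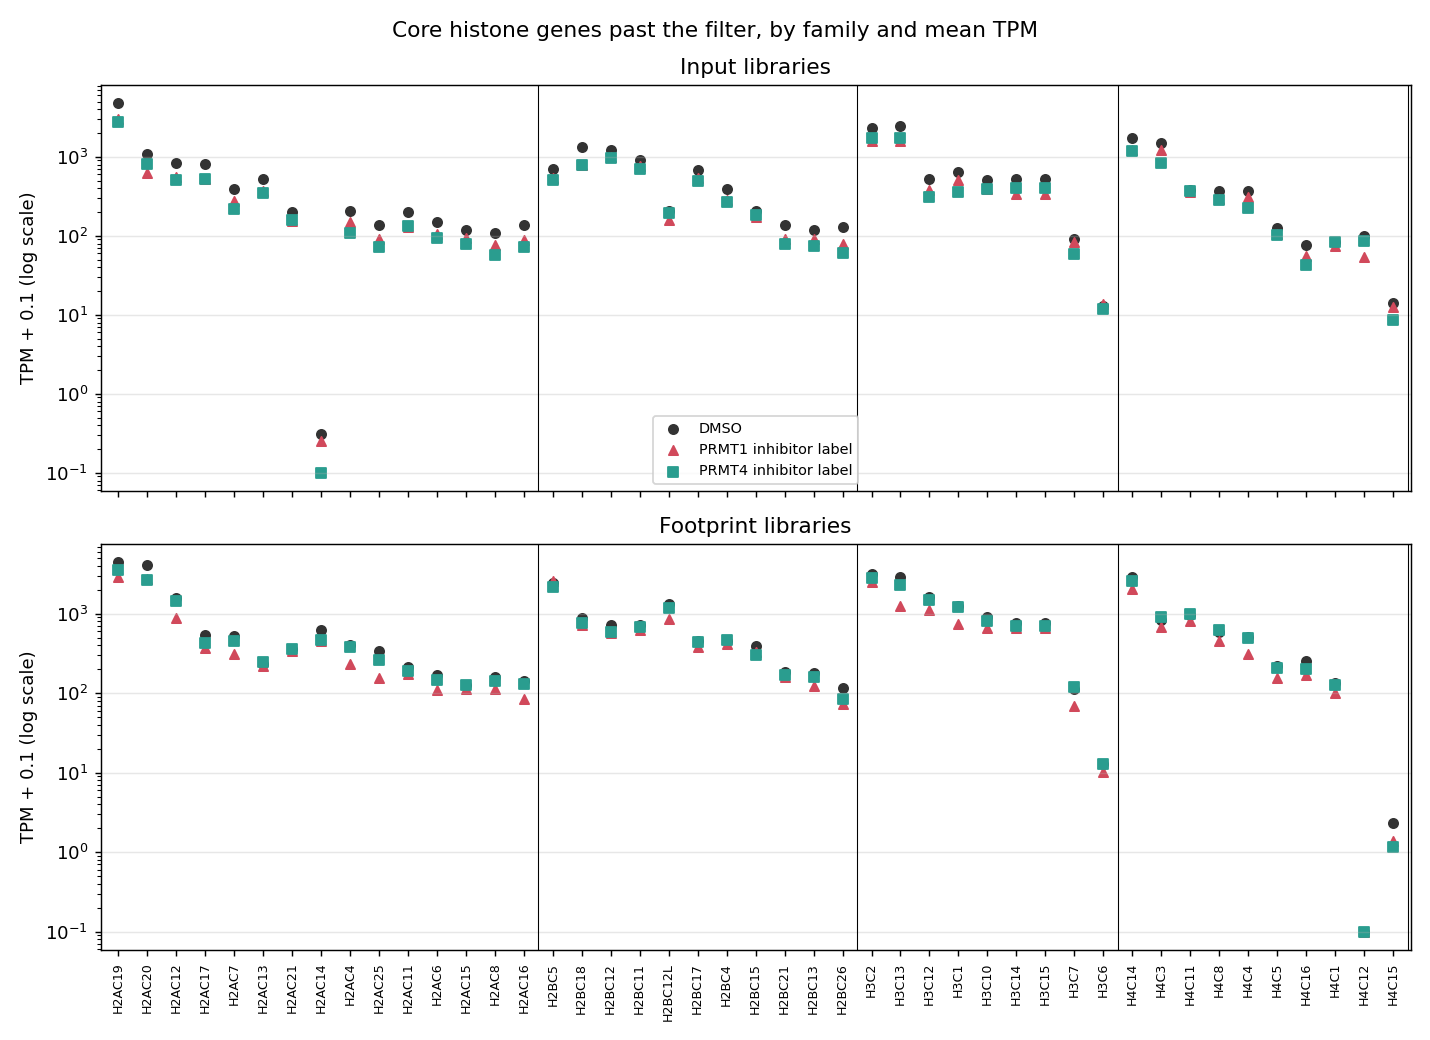
TPM plus 0.1 on a log axis for the 45 core histone genes past the filter, grouped by family and ordered by mean TPM, in the input libraries (upper panel) and the footprint libraries (lower panel), with 1 point per library. H2AC14 lies at the floor of the upper panel and H4C12 at the floor of the lower one, while most members stay within the same range in both fractions.

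The members drawn at the floor are copies that share sequence with a neighbour in the list. H4C12 was listed at 101, 54.5 and 85.2 TPM in input and at 0 in all footprint libraries; its coding sequence is the one printed above as identical to H4C11. H2AC14 was listed at 0.21, 0.15 and 0 TPM in the inputs but at 624, 450.3 and 471 TPM in footprints, while H2AC13 stood at 527, 366 and 348 TPM as input and 232, 222 and 245 TPM as footprints. These 2 genes and H4C15 passed the filter through 1 fraction only, so loading is given below with and without the 3 of them. Summed over the copies, H4C11 with H4C12 came to 485, 414 and 454 TPM (inputs) and 977, 813 and 993 TPM (footprints), and H2AC13 with H2AC14 to 527, 366 and 348 TPM as input and 856, 672 and 717 TPM as footprints. H4C15, whose coding sequence is identical to that of H4C14, stood at only 13.95 TPM in the DMSO input and 2.23 TPM in the DMSO footprints, and how reads were divided between these copies was not tested. The summed copies of H4C11 with H4C12 and of H2AC13 with H2AC14 lay higher in footprints than in input under every label.

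Ribosome loading was measured as log2((footprint TPM + 1) / (input TPM + 1)) and centred on the median gene of the 9040; the pseudocount of 1 TPM understates changes of low genes. Before centring the median gene stood at 0.09, 0.11 and 0.46 for DMSO, the PRMT1 inhibitor label and the PRMT4 inhibitor label. The 45 core histone genes had a centred median of 0.38 in DMSO, with 30 above 0 (50.0% of all tested genes by construction), and of 0.43 and 0.37 in the inhibitor labels, with 28 and 33 above 0 (50.0% again). In DMSO 8 of 45 were at least 2-fold above the median gene, against 16.4% of all genes, and 3 at least 2-fold below, against 19.0%. Without H4C12, H4C15 and H2AC14 the median of the other 42 was 0.43 in DMSO, with 29 above 0, 7 at least 2-fold above and 1 at least 2-fold below. The sign of the median depended on scale: with TPM rescaled to protein-coding genes it was -0.23, -0.15 and -0.24, and after removal of a trend on mean expression -0.33, -0.31 and -0.41.

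Members were also described by how much of their sequence is their own. Over the 20 with at least 75% own windows the centred DMSO ratio ran from -0.94 to 1.66 with a median of 0.59. Over the other 25 the median was 0.15, and over the 22 of them past the filter in both fractions the ratio ran from -1.27 (H2AC13) to 2.62 (H2BC12L) with a median of 0.23. Within the 20, H4C3 was the lowest in DMSO (-0.94), H4C16 the highest (1.66, at 75.5 TPM in input and 256 TPM in footprints) and H3C12 next (1.54); H4C16 was chosen after its value was seen. H4C3 stayed below 0 and H3C12 above 1 under every label: H4C3 at -0.98 and -0.31, H3C12 at 1.43 and 1.81 in the PRMT1 and PRMT4 inhibitor labels. Own windows were counted on the coding sequence only. Of the coding windows of H2AC17 87.1%, and of those of H2AC15 14.8%, also occur in H3C12 transcripts. How reads were divided between these genes was not tested. Outside the 20, H2AC20 (48.5% own windows) was at 1.81, 2.02 and 1.28 and H2BC5 (61.6%) at 1.75, 2.18 and 1.64.

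**Figure D3:**
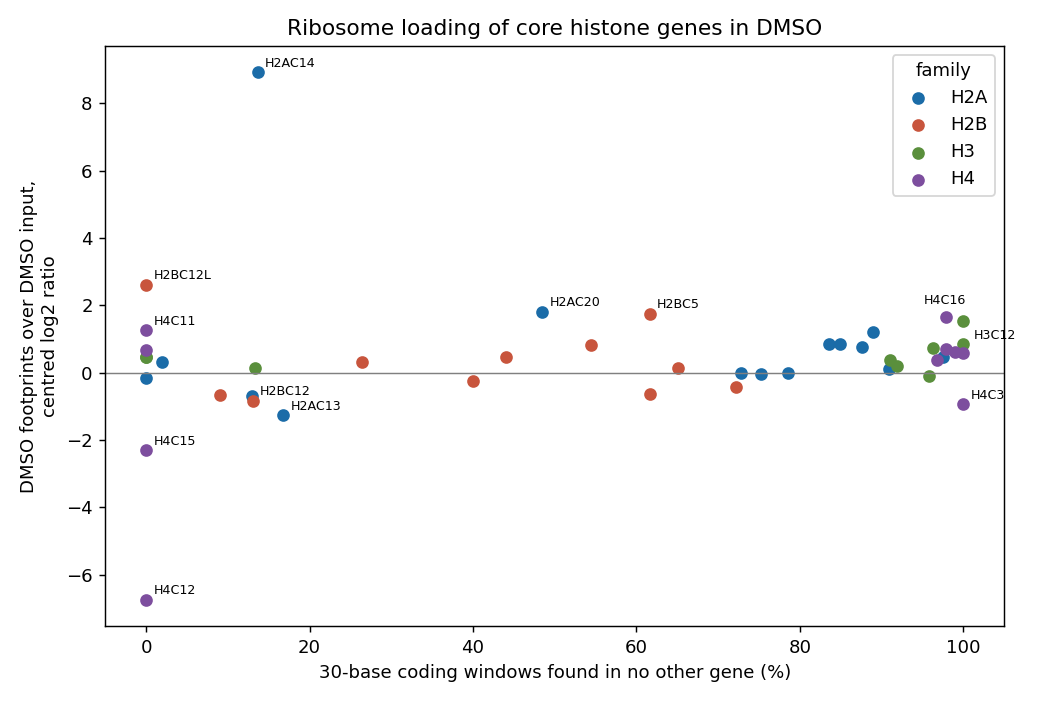
Centred log2 ratio of footprints over input in DMSO (vertical axis) against the percentage of a member's coding windows that occur in no other gene (horizontal axis), with 1 point per core histone gene and the families in colour. The points at -6.75 (H4C12, 0 TPM in footprints) and 8.93 (H2AC14, 0.21 TPM in input) belong to copies with few or no own windows, and the members at the right edge lie between -0.94 and 1.66.

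In input, core histone genes lay below the median gene in most cases under either inhibitor label. Every ratio to DMSO was centred on the median tested gene, which before centring stood at -0.16 and -0.37 in the inputs and at -0.15 and -0.01 in the footprints (PRMT1 and PRMT4 inhibitor labels). In the input labelled PRMT1 inhibitor 40 of 45 members lay below 0 (50.0% of all tested genes) with a median log2 ratio of -0.28. No member was at least 2-fold lower (0.199% of all) or higher (0.619% of all). By family, the counts below 0 were 14 of 15 H2A, 11 of 11 H2B, 7 of 9 H3 and 8 of 10 H4 genes, with medians of -0.37, -0.21, -0.29 and -0.11. Each family median stayed below 0 under every scaling tried, down to -0.01 for H4 after removal of the expression trend. The same ratio had a median of -0.01 over protein-coding genes. In these bulk lysates fewer cells in S phase and less histone RNA per cell cannot be told apart.

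Extremes were named among the 43 members at a mean of at least 20 TPM, all of the 45 but H3C6 and H4C15. H2AC20 was the lowest with a measured level in both fractions (-0.65, from 1097 to 624 TPM), and H4C12 lower still (-0.71, from 101 to 54.5 TPM), with no own window. At the other end H4C11 stood at 0.06 (384 to 359 TPM); H2AC14, at 0.09, was at or under 0.21 TPM. H4C11 and H4C12 have identical coding sequences, and their sum gave -0.07.

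In the input labelled PRMT4 inhibitor 35 of 45 members lay below 0 (50.0% of all) with a median of -0.23. No member was at least 2-fold lower (0.465% of all) or higher (1.98% of all). H2A stood apart from the other families in value: its median was -0.29 with 13 of 15 below 0, and it stayed negative under every scaling. The medians of H2B, H3 and H4 were -0.08, -0.05 and -0.09, and those of H2B and H3 turned to 0.01 and 0.03 with TPM rescaled to protein-coding genes and to 0.04 and 0.01 after removal of the expression trend. The lowest members were H2BC26 (-0.72, at 131, 78.0 and 61.3 TPM in the inputs) and H2AC4 (-0.56, at 207, 149 and 109 TPM). For either gene the DMSO input was highest and the PRMT4 inhibitor label lowest. Of the coding windows of H2BC26 54.0% also occur in the pseudogene H2BC27P, listed at 164, 88.9 and 75.7 TPM in these inputs. How reads were divided between these 2 loci was not tested. The highest were H4C1 (0.40; 82.8, 73.9 and 84.7 TPM) and H4C11 (0.30), whose input levels, given above, were close together. The count depended on the scaling: 28 of 45 members lay below 0 with TPM rescaled to protein-coding genes and not centred, 44 without centring alone, and 26 after removal of the expression trend, where the median of all 45 was -0.05.

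In the footprints labelled PRMT1 inhibitor 40 of 45 members lay below 0 (50.0% of all) with a median of -0.32, and 1, H3C13, was at least 2-fold lower (0.575% of all), while none was 2-fold higher (3.25% of all). H3C13 stood at -1.04 (2876 TPM in DMSO and 1268 TPM here), and H2AC25 of the HIST3 cluster at -0.96 (337 and 156 TPM, with 262 TPM under the PRMT4 inhibitor label). The call at 2-fold moved with the settings: H3C13 came to -0.93 with TPM rescaled to protein-coding genes and -0.98 after removal of the expression trend, and H2AC25 to -1.11 without centring or without a filter, -1.02 with genes at a mean of at least 1 TPM and -1.16 after the fit on GC content and length. Only 13.4% of the H3C13 coding windows are its own, and it shares windows with 8 other genes. Of its windows 70.4% also occur in the pseudogene H3P4, listed at or under 1.71 TPM in input. How reads were divided between H3C13 and these genes was not tested. For H2AC25 89.0% of the windows are its own. The family medians were -0.43 for H2A, -0.13 for H2B, -0.31 for H3 and -0.29 for H4; that of H2B came to 0.02 after removal of the expression trend, and the other 3 stayed negative under every scaling. H2BC5 was the highest member with a level in this library, at 0.23, and the only one of the 45 whose TPM exceeded that of the DMSO footprints (2624 against 2475 TPM). H4C12, at 0 TPM in both libraries, has no ratio that can be read but is counted above 0. Of the 42 members past the filter in both fractions 38 lay below 0 (50.0% of all).

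In the footprints labelled PRMT4 inhibitor 36 of 45 members lay below 0 (50.0% of all), with a median of -0.13 and none at least 2-fold lower (0.254% of all) or higher (0.642% of all). Family medians were -0.16 for H2A, -0.17 for H2B, -0.12 for H3 and -0.05 for H4, all negative under every scaling tried, although H4 reached only -0.0016 with TPM rescaled to protein-coding genes. Of the 43 members at a mean of at least 20 TPM, H2AC20 was lowest at -0.61 (4099.95 to 2682 TPM) and H2BC26 next at -0.44 (116 to 84.9 TPM). H4C3 was highest at 0.15 (829 to 917 TPM), followed by H4C8 at 0.12 (586 to 633 TPM).

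**Figure D4:**
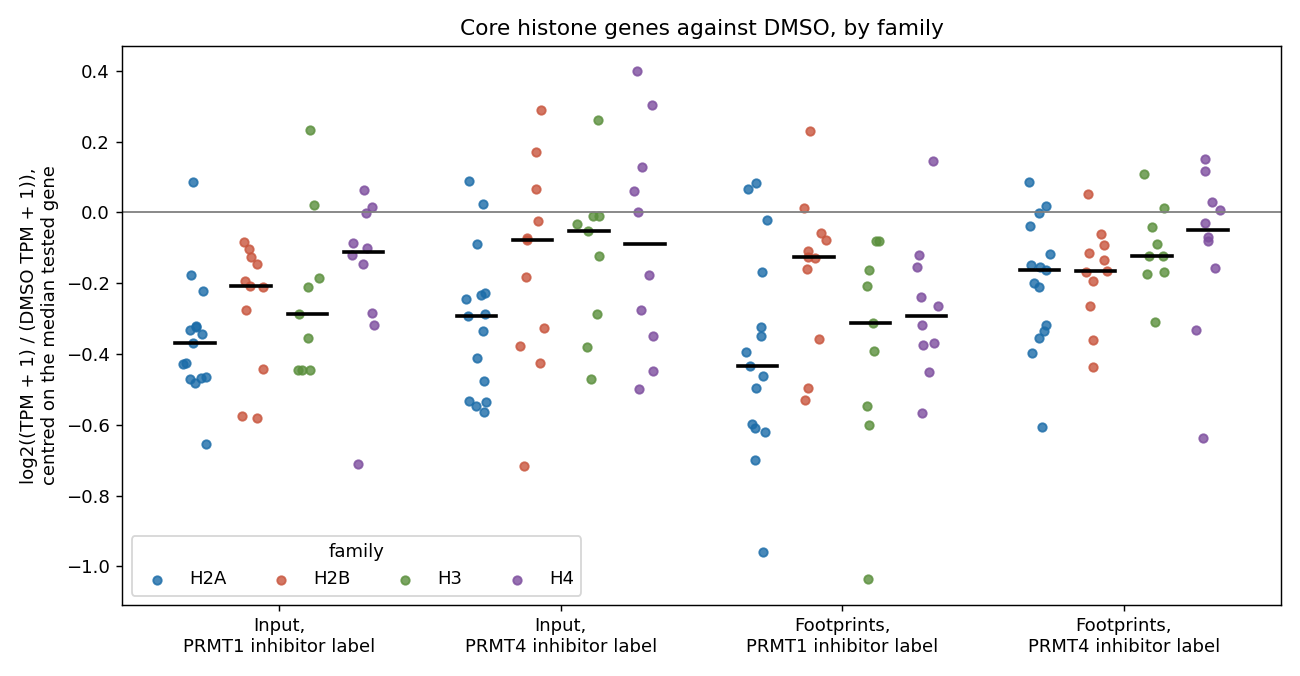
Centred log2 ratio to DMSO of the 45 core histone genes (vertical axis) in the inputs and footprints of the inhibitor labels, by family, with 1 point per gene and a bar at each family's median. The H2A bars lie lowest in the first 3 comparisons, at -0.37, -0.29 and -0.43, and H3C13 is the single point below -1.

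The gene clusters differed in value as well. The HIST1 cluster on chromosome 6 had 31 members past the filter, HIST2 and HIST3 on chromosome 1 had 10 and 2, and the clusters were not chosen by any value. HIST1 medians were -0.21, -0.23, -0.27 and -0.09 in the inputs labelled PRMT1 and PRMT4 inhibitor and the corresponding footprints, and HIST2 medians -0.44, -0.15, -0.25 and -0.18. The HIST3 members, H2AC25 and H2BC26, which face each other, lay below 0 in all 4, with medians of -0.50, -0.62, -0.75 and -0.40. H2AC25 stood at 135, 89.9 and 72.3 TPM in input, H2BC26 at 116, 72.1 and 84.9 TPM in footprints, and their other values are given above. In the input labelled PRMT1 inhibitor the HIST2 median of -0.44 is the value of H3C14 and H3C15. These hold 1 measurement but both count among the 10 HIST2 members. H3C13 and H2BC21 also lay at -0.44 there.

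Each inhibitor was compared with the same DMSO libraries, so the input ratios of the labels share a denominator, as do the footprint ratios. Input and footprint ratios share none. Across the 45 members the footprint ratios labelled PRMT1 inhibitor followed the input ratios labelled PRMT4 inhibitor (r = 0.44, rho = 0.52) more than those of their own label (r = 0.13, rho = 0.15). Footprint ratios labelled PRMT4 inhibitor were closer to the input ratios labelled PRMT1 inhibitor (r = 0.27, rho = 0.34) than to their own (r = 0.14, rho = 0.14). Over the 20 members with at least 75% own windows these values were 0.60 against 0.36, and 0.61 against 0.24 (Pearson r). The same order held over all 9040 genes, at 0.45 against 0.26 and 0.32 against 0.21 (Pearson r). All are descriptions across genes that share libraries. The 45 include H4C12, at 0 TPM in the footprints, and H2AC14, at or under 0.21 TPM in the inputs.

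The change of loading against DMSO, the footprint ratio minus the input ratio of the same label, had a small median over the 45 members as reported, which moved with the settings. For the PRMT1 inhibitor label its median was -0.06, with 26 of 45 members below 0 (50.0% of all). After a fit on GC content and length it was -0.26 with 35 of 45 below 0, and over the 20 members with own sequence -0.17 with 17 of 20 below 0. For the PRMT4 inhibitor label it was 0.07, with 21 of 45 below 0 (50.0% of all), and without centring 0.44 with 6 of 45 below 0. No member was 2-fold lower or higher, against 0.929% and 3.19% of all genes for the former label and 2.13% and 0.808% for the latter. With the input of the other inhibitor label the medians were -0.11 (33 of 45 below 0) and 0.13 (9 of 45 below 0). The sign under the PRMT4 inhibitor label turned to -0.05 after removal of the expression trend and to -0.01 for the ratio of summed TPM.

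Single genes moved apart more than the median shows, each value below being taken with the input of its own label only. Under the PRMT1 inhibitor label the lowest were H3C13 (-0.59) and H3C7 (-0.57; inputs at 92.3, 83.8 and 58.4 TPM, footprints at 112, 69.0 and 121 TPM), and among the highest was H2AC13 (0.45), which with H2AC14 added came to 0.16. Under the PRMT4 inhibitor label the lowest were H2BC15 (-0.54; 209, 171 and 182 TPM as input and 392, 328 and 304 TPM as footprints) and H2AC20 (-0.53), and the highest H4C3 (0.64) and H2AC4 (0.51; 399, 236 and 387 TPM in footprints). These values depend on which input is paired. For H2AC20 the footprint ratio labelled PRMT4 inhibitor was -0.61, and its input ratios were -0.65 (PRMT1 inhibitor label) and -0.09 (PRMT4 inhibitor label). For H3C13 the input ratios were -0.44 and -0.12 in the same order, beside -1.04 in the footprints labelled PRMT1 inhibitor. H3C7, H4C3 and H2AC4 share a pattern in their levels. Their lower inhibitor input was that labelled PRMT4 inhibitor, and their lower inhibitor footprint library that labelled PRMT1 inhibitor.

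That pattern was counted in the direct comparison of the inhibitor labels, which uses no DMSO library. The ratio of the PRMT1 over the PRMT4 inhibitor label was above 0 in input and below 0 in footprints for 14 of the 45 members, the reverse for 11, below 0 in both for 17 and above 0 in both for 3. Signs were thus opposite in 55.6% of the members, beside 63.9% of all tested genes. H4C12, at 0 TPM in both of these footprint libraries, is counted among the 11. H2AC14, at 0.15 and 0 TPM in these inputs, is counted among the 3. Their ratios in those fractions cannot be read, and counts without them are not given. In input the members had a median of -0.07 with 28 below 0 (50.0% of all), a sign that turned to 0.12 without centring and to 0.04 over the 20 members with own sequence. In footprints the median was -0.13 with 31 below 0 (50.0% of all), and -0.29 over the 20, of which 19 lay below 0. H3C7 (0.32 in input, -0.65 in footprints) and H4C3 (0.39 and -0.30) were at 1 end. H2AC20 (-0.55 and 0.18) and H2BC5 (-0.11 and 0.40) were at the other. H3C13 was low in both (-0.30 and -0.72), and H2BC15 was at -0.28 and 0.26. No member was 2-fold apart between the labels, either lower or higher, in input (1.03% and 0.664% of all) or in footprints (0.442% and 3.12% of all).

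**Figure D5:**
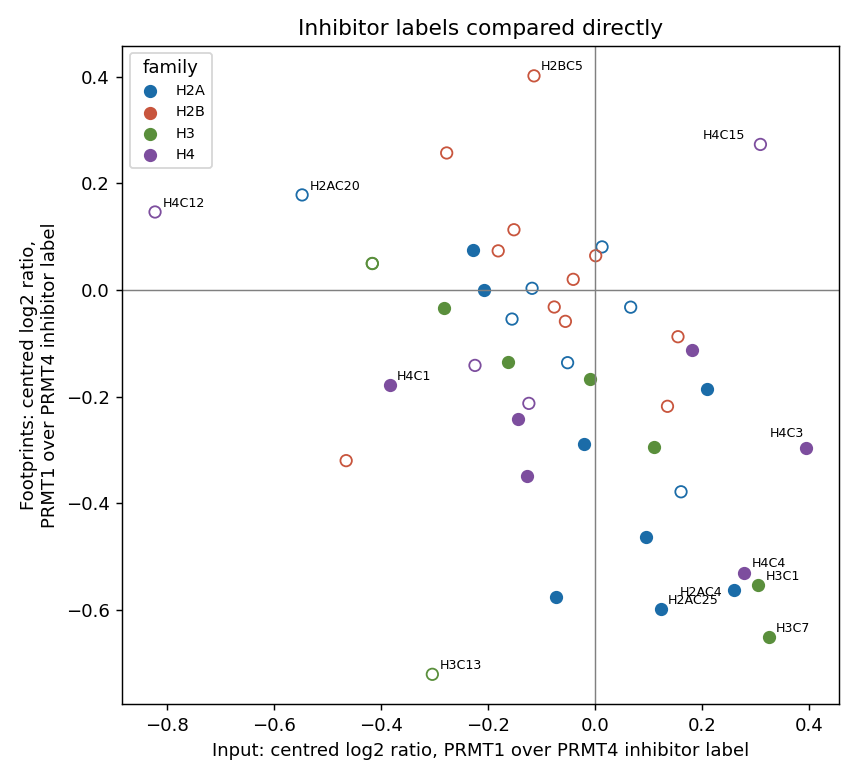
Centred log2 ratio of the PRMT1 over the PRMT4 inhibitor label in footprints (vertical axis) against the same ratio in input (horizontal axis), with 1 point per core histone gene, families in colour, filled where at least 75% of coding windows are the gene's own; H3C14 and H3C15 coincide. Filled points run from upper left to lower right (r = -0.62 over 20 genes), and 14 of all 45 points lie at the lower right, above 0 in input and below 0 in footprints.

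The core histone genes H2AC6, H2BC4, H2BC5, H2BC12 and H2BC21 are known to be made also as longer, polyadenylated messages, and they were listed apart because most core histone messages carry no poly(A) tail. Their input medians were -0.28 (5 of 5 below 0) and -0.18 (4 of 5), and their footprint medians -0.06 (3 of 5) and -0.17 (4 of 5), for the PRMT1 and PRMT4 inhibitor labels. H2BC21 was the lowest of the 5 in either input, at 139, 91.0 and 79.7 TPM, and its footprints stood at 183, 159 and 168 TPM. H2AC6 was the lowest in footprints labelled PRMT1 inhibitor, at 172, 109.7 and 149 TPM in the footprints and 149, 106 and 94.5 TPM in input. H2BC4 stood at 389, 288 and 266 TPM (inputs) and 459.7, 419 and 474 TPM (footprints), with the footprints close together.

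H2A and H2B genes are often neighbours read in opposite directions from a shared stretch, as in the H2AC20 promoter printed above, whose window overlaps that of H2BC21 on the other strand. Overlapping promoter windows on opposite strands were found for 9 such pairs, of which 7 had both genes past the filter. The listed levels of the partners often differed. In the DMSO input 4 of the 7 pairs were over 2-fold apart, and in the DMSO footprints 5 of 7. Own windows of the H2A genes in these pairs ran from 12.9% (H2AC17) to 90.9% (H2AC6). Those of the H2B genes ran from 26.4% (H2BC21) to 72.2% (H2BC11). How reads were divided between these partners and the genes that share their windows was not tested. H2AC20 stood at 1097 TPM in the DMSO input against 139 TPM for H2BC21, whereas H2BC11 stood at 913 TPM against 203 TPM for H2AC11. H2AC17 and H2BC17 were closest together in footprints, at 541 and 459 TPM. The signs of the ratios to DMSO matched within 7 of 7 pairs in the input labelled PRMT1 inhibitor, 6 of 7 in the input labelled PRMT4 inhibitor, and 5 and 4 of 7 in the corresponding footprints, where most members lay below 0 in any case.

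Genes that act on histone messages and histone proteins were described from lists beside the members, with 50.0% of all tested genes below 0 in each comparison. Of 35 processing and control genes, 33 passed the filter, and 20, 23, 21 and 17 of them lay below 0 in the input labelled PRMT1 inhibitor, the input labelled PRMT4 inhibitor and the corresponding footprints. Their medians were -0.04, -0.13, -0.14 and -0.01. SLBP stood at 97.0, 84.3 and 50.0 TPM as input and 114, 86.3 and 115 TPM as footprints, the PRMT4 inhibitor label lowest in input and the PRMT1 inhibitor label lowest in footprints. NPAT, the coactivator of histone gene transcription, stood at 6.52, 7.10 and 4.36 TPM (inputs) and 6.33, 9.31 and 9.16 TPM (footprints). SYMPK, a scaffold of the cleavage complex, was the lowest of the list in footprints labelled PRMT1 inhibitor (-0.99; 28.9 to 12.6 TPM), and UPF1, which takes part in histone message decay, the highest in the input labelled PRMT4 inhibitor (0.70; 19.8 to 25.2 TPM).

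Histone chaperones carry the new proteins to DNA. All 25 listed passed the filter, with 10, 18, 18 and 14 below 0 in the same order and medians of 0.04, -0.15, -0.19 and -0.03. RBBP7, a histone-binding subunit of several chromatin complexes, was lowest in the footprints labelled PRMT1 inhibitor (-1.04; 200.5, 87.6 and 161 TPM), and IPO4, an importin for histones, in the input of that label (-0.68; 57.4, 31.6 and 40.8 TPM).

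DNA replication genes, whose products act in the same phase of the cell cycle, did not lie lower in the input labelled PRMT1 inhibitor. Of 46 measured, 22 were below 0 there with a median of 0.01, beside 40 of 45 and -0.28 for the core histone genes. In the input labelled PRMT4 inhibitor 41 of 46 were below 0 with a median of -0.25, beside 35 of 45 and -0.23. In footprints 34 and 28 of 46 were below 0, with medians of -0.21 and -0.03. MCM7, a subunit of the replicative helicase, was the lowest in 3 of these 4 comparisons (-0.65, -0.71 and -0.80; 126, 71.3 and 59.1 TPM as input and 245, 127 and 181 TPM as footprints). PRIM2, a primase subunit, was the highest in the input labelled PRMT1 inhibitor (0.50; 7.90 to 10.3 TPM). With 1 library per group the difference between these lists was not tested.

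Linker histones, which bind where DNA enters and leaves the nucleosome and whose main messages also end in the stem-loop, had 5 of 7 genes past the filter. Their medians were -0.32, -0.38, -0.56 and -0.31, with 4, 5, 5 and 4 of 5 below 0. H1-3 was at least 2-fold lower in the input labelled PRMT4 inhibitor (-1.37; 243, 169 and 72.4 TPM) and in the footprints labelled PRMT1 inhibitor (-1.07; 262, 113 and 215 TPM). H1-4 stood at 1858, 1331 and 1145 TPM (inputs) and 26627, 16678 and 16925 TPM (footprints), more than any core histone gene there. Histone variants listed as having polyadenylated messages, 8 of 11 past the filter, had medians of -0.16, -0.01, -0.11 and -0.06. H3-3A, which encodes a replacement histone, stood at 123, 134 and 81.8 TPM as input and 746, 593 and 779 TPM as footprints, and H2AZ1 at 479, 362 and 294 TPM (inputs) and 1227, 1011 and 1145 TPM (footprints).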

How the data were processed

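The deposited table held TPM computed by the authors, 1 column per library with 2 decimals; 0 columns belonged to no sample. RSEM 1.2.22, STAR 2.4.2a, Bowtie 1.1.2, cutadapt 1.18 and the build GRCh37.p13 appear in the submitters' processing notes, with no role for each. The sources used here do not give how reads shared by copies were handled. Labels' protocols describe RNase I digestion and monosome collection.

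Ratios were log2((TPM + 1) / (TPM + 1)), centred on the median of 9040 genes with a mean of at least 5 TPM (statsmodels 0.14.6, scipy 1.17.1, pandas 2.3.3 and numpy 2.4.6 under Python 3.11.15), and checked on simulated data. With 1 library per group no test was made. Symbols came from a gene name table, GENCODE 29 and RefSeq (GRCh38.p14). Members and lists were chosen with earlier results of these data known. Named genes were the 3 most abundant of each family, the 2 highest and 2 lowest in each comparison at a mean of at least 20 TPM, the extremes of each list, SLBP, NPAT, PRMT1 and CARM1; genes discussed for shared sequence or as pairs were chosen after their values were seen. Alternatives varied pseudocount, filter, scaling, trend, GC content with length, summing, own windows, a filter in both fractions and the input paired. A further marker list is not reported here.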

Additional observations from a re-analysis of the deposited data

How the results depend on the processing

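Medians of the core histone genes are given for each alternative in 1 order: inputs labelled PRMT1 and PRMT4 inhibitor over DMSO, footprints of these labels over DMSO, the change of loading in these labels, loading in DMSO and in these labels, and the PRMT1 over the PRMT4 inhibitor label in input and in footprints. As reported they were -0.28, -0.23, -0.32, -0.13, -0.061, 0.069, 0.38, 0.43, 0.37, -0.072 and -0.13. With a pseudocount of 0.1 TPM they were -0.28, -0.21, -0.31, -0.13, -0.063, 0.055, 0.38, 0.42, 0.34, -0.086 and -0.13. A pseudocount of 5 TPM gave -0.30, -0.26, -0.34, -0.13, -0.059, 0.14, 0.40, 0.45, 0.46, -0.037 and -0.14. Genes at a mean of at least 1 TPM gave -0.30, -0.30, -0.38, -0.13, -0.087, 0.13, 0.60, 0.51, 0.66, -0.021 and -0.19. Without a filter the values came to -0.33, -0.41, -0.31, -0.098, -0.044, 0.29, 0.24, 0.20, 0.71, 0.057 and -0.18. Uncentred, the medians stood at -0.44, -0.59, -0.46, -0.14, -0.044, 0.44, 0.47, 0.54, 0.83, 0.12 and -0.28. Rescaling to protein-coding TPM gave -0.21, -0.15, -0.21, -0.067, -0.029, 0.076, -0.23, -0.15, -0.24, -0.094 and -0.10. After removal of a trend on mean expression they were -0.17, -0.046, -0.17, -0.087, -0.052, -0.055, -0.33, -0.31, -0.41, -0.10 and -0.058. After a fit on GC content and length they came to -0.30, -0.30, -0.51, -0.20, -0.26, 0.079, 0.18, -0.093, 0.41, 0.049 and -0.29. The ratio of TPM summed over the members was -0.34, -0.20, -0.34, -0.20, -0.0042, -0.012, 0.42, 0.41, 0.40, -0.12 and -0.13. The 20 members with at least 75% own windows, a choice made after seeing the data, gave -0.25, -0.31, -0.37, -0.085, -0.17, 0.13, 0.59, 0.46, 0.62, 0.043 and -0.29. The 42 members past the filter in both fractions, also chosen after seeing the data, gave -0.28, -0.23, -0.32, -0.13, -0.060, 0.079, 0.43, 0.43, 0.45, -0.074 and -0.14. In the inputs and then the footprints against DMSO, 39, 34, 38 and 34 of these 42 lay below 0 (50.0% of all). With the input of the other inhibitor label the change of loading was -0.11 and 0.13, and 9 members lay below 0 under the PRMT4 inhibitor label, against 6 without centring and 21 as reported. Over all these settings the input and footprint medians against DMSO kept their sign, as did the change of loading under the PRMT1 inhibitor label; that under the PRMT4 inhibitor label, the loading medians and the direct difference in input did not. The cause was not tested. No paired analysis was possible because each group had 1 library, and for the same reason no library could be left out. Unknown depth limits what can be said of low members such as H3C6 and H4C15.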

Other observations

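Pseudogenes of the clusters can hold signal too. H2BC27P, a pseudogene of the HIST3 cluster, stood at 164, 88.9 and 75.7 TPM in the inputs (DMSO, PRMT1 inhibitor label, PRMT4 inhibitor label) and at 0, 0.17 and 0 TPM in the footprints; 54.0% of the coding windows of H2BC26 occur in it. H2BC19P stood at 2.58, 3.24 and 3.14 TPM in input and 10.4, 8.0 and 3.71 TPM in footprints. Protein-coding genes held 45.7%, 38.7% and 33.4% of all TPM in the inputs and 74.3%, 62.3% and 70.6% in the footprints, in the same order.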
